A study of Mus musculus with 8 samples.

Results

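The 9 genes described here belong to the lysosome and were followed by symbol through 8 single-cell libraries of a mouse mammary tumour: the cathepsins Ctsb, Ctsd, Ctsl, Ctss, Ctsz and Ctsc, the asparaginyl endopeptidase Lgmn, the sphingolipid activator precursor Psap and the membrane glycoprotein Lamp1. All 9 had a row among the 17580 gene identifiers of the library tables, and all 9 were found in the annotated cells. Lysosomes break down proteins and lipids at low pH. Cathepsins are their proteases, made as inactive precursors and cut to the active form inside the organelle, and Lgmn takes part in that cutting. Macrophages carry many lysosomes, which digest what the cells engulf and prepare peptides for antigen presentation, and carcinoma cells are known to make and secrete some cathepsins. The genes lie apart on 8 chromosomes of GRCm38, with only Ctsd and Ctsc on the same one (GENCODE annotation): Ctsb at chr14:63122462-63145923, Ctsd at chr7:142375911-142388038, Ctsl at chr13:64359337-64370890, Ctss at chr3:95526786-95556403, Ctsz at chr2:174427493-174439039, Ctsc at chr7:88278085-88310888, Lgmn at chr12:102394084-102439813, Psap at chr10:60277627-60302597 and Lamp1 at chr8:13159161-13175338.

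The tumours were grown from 4T1 cells, a Balb/c mammary carcinoma line, injected under the skin of Balb/c mice and collected after 10 days. Pieces were digested for 1 h with protease from Bacillus licheniformis under 4 conditions: 37C with inhibitor, 37C without inhibitor, 4C with inhibitor and 4C without inhibitor. The inhibitor named in the protocol is actinomycin D at 2 nM, which blocks transcription. A heated dissociator was used for 37C and a different, unheated one for 4C, so temperature and instrument cannot be told apart. Each condition was a pool of 6 pieces from different mice, and its suspension was divided into the aliquots A and B. All groups went through lysis of red cells and removal of debris and dead cells. Every p-value below therefore measures only the spread between aliquots of the same suspension, save in the fit of summed suspensions described last.

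The deposited annotation names 654 cells in 4 types, with 903968 UMIs (counted molecules) in all. Totals in annotated cells ran from 158314 to 199929 UMIs per library at 37C and from 23212 to 65149 at 4C, so the 4C values are the less precise. The 9 genes together had 4999 UMIs at 37C and 702 at 4C. Levels are given as CPM, the counts per 1000000 UMIs summed over the cells named. Intervals in brackets are exact 95% Poisson or binomial intervals and cover counting error only. Of 23660 distinct barcodes, 318 were listed in more than 1 library, and 1 of the 653 annotated barcodes was. Macrophages were 14.8% to 30.8% of annotated cells in the 37C libraries and 2.94% to 13.6% in the 4C libraries.

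The cells annotated as macrophages were not of one kind. Of the 109, 85 drew at least 1% of their UMIs from 12 macrophage markers (Csf1r, the C1q chains, Cd68, Lyz2 and others), 77 of 92 at 37C and 8 of 17 at 4C. The number near that limit, between 0.5% and 2%, was 14 cells. Another 7 cells, 5 of 92 at 37C and 2 of 17 at 4C, held 5 or more UMIs of 5 mast-cell markers, and all 7 lay below 1% macrophage markers. Both such 4C cells were in aliquot A without inhibitor, where they gave 51.2% of the macrophage UMIs. Of the 109, 6 had 5 or more UMIs of neutrophil markers, counted whatever their share of macrophage markers. The neutrophil markers include Mmp9, at 828 CPM in all annotated macrophages. These 6 cells are therefore not shown to be apart from the 85. Macrophage values are therefore given for all annotated macrophages and for the 85 cells, a set chosen after the data were seen.

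Pooled over all libraries, all 9 genes had a higher level in macrophages than in tumour cells, by factors that differed widely from gene to gene. Of 7056 genes with at least 20 UMIs, 36% were higher in macrophages. The annotation was made from the expression of the same cells, so these differences are a description and carry no test. The pooled ratio was 53.7 for Ctss and 58.8 for Ctsc, between 9.87 and 14.5 for Ctsb, Psap and Lgmn, and near 1 for Ctsl. Most macrophage UMIs came from 37C, 137357 against 11137 from 17 cells at 4C. At 4C the ratio was 17.5 for Ctsc, 4.44 for Ctsb, 3.41 for Lgmn and 0.33 for Ctsl, so Ctsl was there the lower in macrophages.

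Ctss, a cysteine protease of antigen-presenting cells that trims the class II invariant chain, had 3778 CPM [3472 to 4104] in macrophages and 70.4 CPM [50.5 to 95.5] in tumour cells, a ratio of 53.7. Macrophages held 87.1% of its UMIs and 16.4% of all UMIs. Ctsc, the dipeptidyl peptidase that activates granule serine proteases, had 1919 CPM in macrophages and 32.6 CPM in tumour cells, a ratio of 58.8. The Ctsc ratio was 32.6 with equal weight for all libraries, 34.4 from the authors' deposited values and 34.8 after thinning to 200 UMIs per cell, while that of Ctss was 54.2, 48.8 and 49.0 in the same order. In the 4 libraries at 37C these ratios ran from 34.4 to 111 for Ctss and from 39.9 to 165 for Ctsc. T cells, which had the lowest median depth of the 4 types, had 264 CPM of Ctss and 157 CPM of Ctsc. The barcodes with under 100 UMIs, described further on, had 2060 CPM of Ctss and 1069 CPM of Ctsc at 37C. At 4C they had 257.5 CPM of Ctss and 105 CPM of Ctsc. The T-cell values pool both temperatures. Whether RNA from outside the cell adds to the low levels in T cells or tumour cells was not tested.

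Ctsb, a cysteine protease with endopeptidase activity, had 4000 CPM [3685 to 4335] in macrophages and 405 CPM [355 to 460] in tumour cells. Its ratio was 9.87, and 8.96 to 12.8 in the 37C libraries. Lgmn had 1488 CPM in macrophages and 103 CPM in tumour cells, 14.5-fold and 8.98-fold with equal weight for all libraries. Psap, whose product is cut into the saposins that help lipid hydrolases, had 465 CPM [362 to 588] in macrophages and 39.5 CPM [25.0 to 59.3] in tumour cells, 11.8-fold on 69 and 23 UMIs. Lgmn and Psap were scarce in lymphocytes, with 49.5 and 41.2 CPM in T cells and 2 and 1 UMIs in all 66 NK cells.

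Ctsl, a cysteine endopeptidase, was the cathepsin that tumour cells shared with macrophages. It had 2633 CPM [2379 to 2907] in macrophages and 2498 CPM [2372 to 2630] in tumour cells, against 65.9 CPM in T cells and 116 CPM in NK cells. The macrophage ratio was 1.05, and the 37C libraries lay on both sides of equality, at 0.672 to 1.33. Ctsl was lower in macrophages when all libraries had equal weight, with a ratio of 0.641, and without aliquot A at 37C with inhibitor, with a log2 ratio of -0.10. A UMI of Ctsl was found in 86.5% of tumour cells and 60.6% of macrophages, against 5.20% of T cells and 7.58% of NK cells. The median depths were 1133 UMIs in macrophages, 1359 in tumour cells, 503.5 in T cells and 599 in NK cells. With every cell thinned to 200 UMIs the shares were 34.8% of macrophages, 37.2% of tumour cells and 1.69% of T cells. Tumour cells held 78.2% of all Ctsl UMIs and 64.4% of all UMIs. In the 85 marker-bearing macrophages Ctsl had 3317 CPM [2992 to 3668].

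Ctsz, a carboxypeptidase, and Lamp1, a structural protein of the lysosomal membrane, were also divided between the types. Ctsz had 1165 CPM in macrophages and 369 CPM in tumour cells, and Lamp1 had 983 CPM in macrophages and 395 CPM in tumour cells, so the ratios were 3.16 and 2.49. Tumour cells held 53.1% of the Ctsz UMIs and 57.6% of the Lamp1 UMIs, macrophages 42.7% and 36.6%. T cells had 115 CPM of each gene.

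Ctsd, the aspartic protease among the 6, was the most evenly spread. It had 2364 CPM [2123 to 2624] in macrophages, 1256 CPM [969 to 1600] in NK cells, 626 CPM [494 to 784] in T cells and 507 CPM [450 to 568] in tumour cells. The intervals of T and tumour cells overlapped, and those of macrophages and NK cells stood apart from them and from each other. For every UMI of Ctsb there were 0.591 of Ctsd in macrophages [0.516 to 0.675], 1.25 in tumour cells [1.05 to 1.49], 1.58 in T cells [1.09 to 2.32] and 4.64 in NK cells [2.58 to 8.96]. The 7 cells with mast-cell markers had 1962 CPM of Ctsd [1270 to 2897] on 25 UMIs. They had 549.5 CPM of Ctsb, 628 CPM of Ctsc, 157 CPM of Ctsz and 235.5 CPM of Lamp1, each on 8 UMIs or fewer, and 0 UMIs of Ctsl, Ctss, Lgmn and Psap in 12739.

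**Figure D1:**
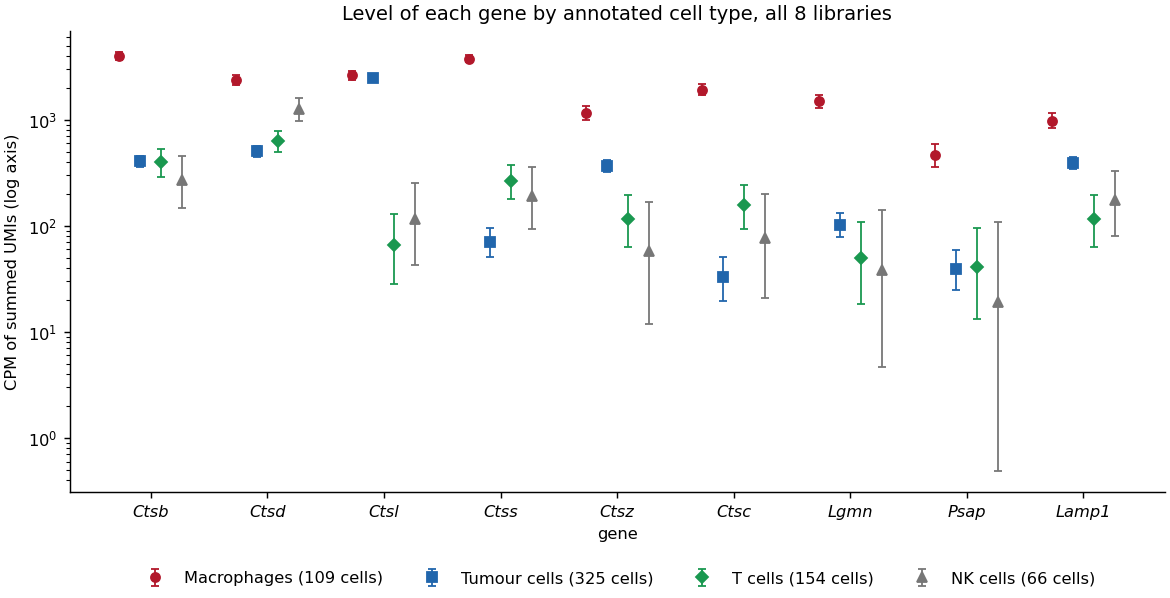
Level of each gene in the 4 annotated cell types (CPM of UMIs summed over all 8 libraries, log axis), with exact 95% Poisson intervals that cover counting error only. Macrophages lie highest for every gene, but only narrowly for Ctsl (2633 CPM, against 2498 CPM in tumour cells), and Ctsd is the gene with the highest level in NK cells (1256 CPM).

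Within a cell, macrophages had a median of 6 of the 9 genes with a UMI, tumour cells 3 and T and NK cells 1 each. After thinning to 200 UMIs a macrophage held a mean of 2.57 of the genes and a tumour cell 0.739. None of the genes was seen in 4 of 109 macrophages and 10 of 325 tumour cells. Together the 9 genes made 1.88% of the UMIs in macrophages and 0.442% in tumour cells.

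Patterns across the 16 sums of 4 cell types and 4 groups were compared by Pearson correlation of log2(CPM + 100) over 1629 genes. These sums share libraries, depth and cell type, so the values only describe likeness. The genes nearest to Ctsb were Apoe (0.955), Sdc3 (0.954) and Fcgr3 (0.946), and those nearest to Lgmn were Apoe (0.956), Sdc3 (0.945) and Mmp9 (0.940). Lyz2, Ccl6 and Ccr1 were nearest to Ctss at 0.953, 0.947 and 0.934. C3ar1, Ccl6 and Ctsb were nearest to Ctsc at 0.951, 0.940 and 0.937. All these genes had more CPM in macrophages than in tumour cells. Ctsl had other neighbours, Gsn and Blvrb at 0.920 each and Cd63 at 0.906, and tumour cells had 968 CPM of Cd63, against 465 CPM in macrophages. Fcer1g, Tyrobp and Emilin2 were nearest to Ctsd at 0.950, 0.890 and 0.868. Lrp1 (0.942), Grn (0.936) and Plin2 (0.925) were nearest to Lamp1, and Sdc3 (0.920), Lrp1 (0.910) and Grn (0.909) to Ctsz. Psap, with 98 UMIs, was under the minimum of 100.

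RefSeq promoter entries (GRCm38.p6) were matched for 8 of the 9, 10 entries in all, and Ctsb had none. An entry begins 250 bases before a RefSeq transcript start, which can lie inside the longer GENCODE gene given above. CACGTG, the core of the element that the lysosomal regulator TFEB binds, reads the same on both strands and occurred in the 250 bases before the start in 6.02% of 32851 entries. It was present in Lamp1 at 4 places, a count reached by 0.0213% of entries, in Ctsd at 2 places (0.429% with 2 or more), in Ctsl at 1 and in 1 of the 2 Lgmn entries. GAGGAAGT, of the kind bound by the myeloid factor PU.1, was searched on both strands and occurred in 2.44% of entries. Among the 8 genes with an entry it was found in Ctsc alone, and no match overlapped another. Stretches that hold a match are shown for Lamp1, Lgmn and Ctsc, with the matches in capitals:
Lamp1: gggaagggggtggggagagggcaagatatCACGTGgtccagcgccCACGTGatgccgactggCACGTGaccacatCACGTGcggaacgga
Lgmn: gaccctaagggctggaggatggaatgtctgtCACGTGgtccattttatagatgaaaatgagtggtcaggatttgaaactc
Ctsc: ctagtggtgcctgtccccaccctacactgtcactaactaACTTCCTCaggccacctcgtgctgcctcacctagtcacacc

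These stretches, written 5′ to 3′ on each gene's strand, are chr8:13159071-13159160 (plus strand) for Lamp1, chr12:102439093-102439172 (minus) for Lgmn and chr7:88277895-88277974 (plus) for Ctsc. Those of Lamp1 and Ctsc lie before the GENCODE gene, and that of Lgmn lies inside it but in no annotated exon. A match of letters is not a measured binding site, and nothing about the values that follow is drawn from it.

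Between temperatures, Ctsb, Ctss, Ctsz and Lgmn were called higher at 37C in the annotated cells, and none of the 9 genes lower. In the same fit 2.74% of 3391 genes were called higher. A call is an adjusted p under 0.05 in edgeR's quasi-likelihood test, here averaged over inhibitor. Psap was called too, but it passed the count filter through its 37C libraries and so had to differ, which leaves 4 of the other 8 as the count. The remaining 4 had positive values that missed the threshold. DESeq2 called Ctsb, Ctss, Ctsz and Psap, with Lgmn at an adjusted p of 0.0532, and none of 7 tested was called once all libraries had been thinned to the total of the smallest. Macrophage markers were also called higher at 37C, 11 of 11 tested. Cd68 among them passed the count filter through its 37C libraries, and how many others did so was not counted. These 11 calls are therefore not counted as support. The markers' summed level was 3451 to 11690 CPM in the 37C libraries and 744 to 2466 CPM in the 4C libraries. Of 11 T-cell markers 3 (Cd3g, Cd8b1 and Trbc1) were called lower at 37C, and of 5 NK-cell markers 2 (Gzmb and Gzma). The share of all genes called lower is not given here, so these counts are not read as results about those markers. T cells numbered 72 of the 433 cells at 37C, or 16.6%, and 82 of the 221 at 4C, or 37.1%. The summed T-cell markers were 858 to 3101 CPM at 37C and 2409 to 4578 CPM at 4C. In these sums a larger share of macrophages and a higher level per cell cannot be told apart, and the counts without macrophages are given further on.

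Ctss had 1230 and 664 CPM in aliquots A and B at 37C with inhibitor and 707 and 699 CPM at 37C without inhibitor, against 302 and 248 CPM at 4C with inhibitor and 304 and 107 CPM at 4C without inhibitor. The lowest 37C library lay above the highest 4C library by more than 2-fold. The log2 fold change was 1.88 ± 0.31 (SE, n = 4 libraries per temperature; adjusted p = 0.000827, edgeR).

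Ctsb had 1606 and 1109 CPM at 37C with inhibitor and 840 and 796 CPM at 37C without inhibitor, against 732 and 474 CPM at 4C with inhibitor and 417 and 461 CPM at 4C without inhibitor. No library of one temperature reached the other, but the 37C libraries without inhibitor were close to aliquot A at 4C with inhibitor. The log2 fold change was 1.12 ± 0.23 (SE, adjusted p = 0.00687, edgeR).

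Ctsz had 590 and 654 CPM at 37C with inhibitor and 354 and 413 CPM at 37C without inhibitor, against 345 and 180 CPM at 4C with inhibitor and 209 and 123 CPM at 4C without inhibitor. The temperatures again did not overlap. The log2 fold change was 1.35 ± 0.28 (SE, adjusted p = 0.00819, edgeR).

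Lgmn had 605 and 419 CPM at 37C with inhibitor and 164 and 237 CPM at 37C without inhibitor, against 172 and 45.1 CPM at 4C with inhibitor and 133 and 123 CPM at 4C without inhibitor. The libraries at 37C with inhibitor stood above all others, and those without it overlapped the 4C range. The log2 fold change was 1.63 ± 0.36 (SE, adjusted p = 0.0104, edgeR), and without aliquot B at 4C with inhibitor, which had 2 UMIs of Lgmn, it was 1.35 and no longer called.

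Psap had 200 and 107 CPM at 37C with inhibitor and 88.4 and 134 CPM at 37C without inhibitor, against 0 and 0 CPM at 4C with inhibitor and 19.0 and 0 CPM at 4C without inhibitor. This was 97 UMIs at 37C and a single UMI at 4C, and the ratio of summed levels was 25.0 with a counting interval of 4.39 to 999. Since the count filter admitted the gene through its 37C libraries, its call is not counted as support.

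Ctsc, Ctsl, Lamp1 and Ctsd were not called. Ctsc had 285.6 to 720 CPM at 37C and 0 to 388 CPM at 4C, with a log2 fold change of 1.73 ± 0.51 (SE, adjusted p = 0.0574, edgeR). At 4C with inhibitor aliquot A had 9 UMIs and B none. The difference was 5.31 without that aliquot A and 1.19 without that B, and Ctsc was called when any of 5 single libraries was left out. Ctsl had 1428 to 2561 CPM at 37C and 1286 to 2111 CPM at 4C, a difference of 0.44 ± 0.18 on the log2 scale (SE, adjusted p = 0.211, edgeR). Lamp1 differed by 0.67 ± 0.28 (SE, adjusted p = 0.22, edgeR) and Ctsd by 0.23 ± 0.21 (SE, adjusted p = 0.654, edgeR). Ctsd had 790 to 1015 CPM at 37C and 645 to 948 CPM at 4C.

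**Figure D2:**
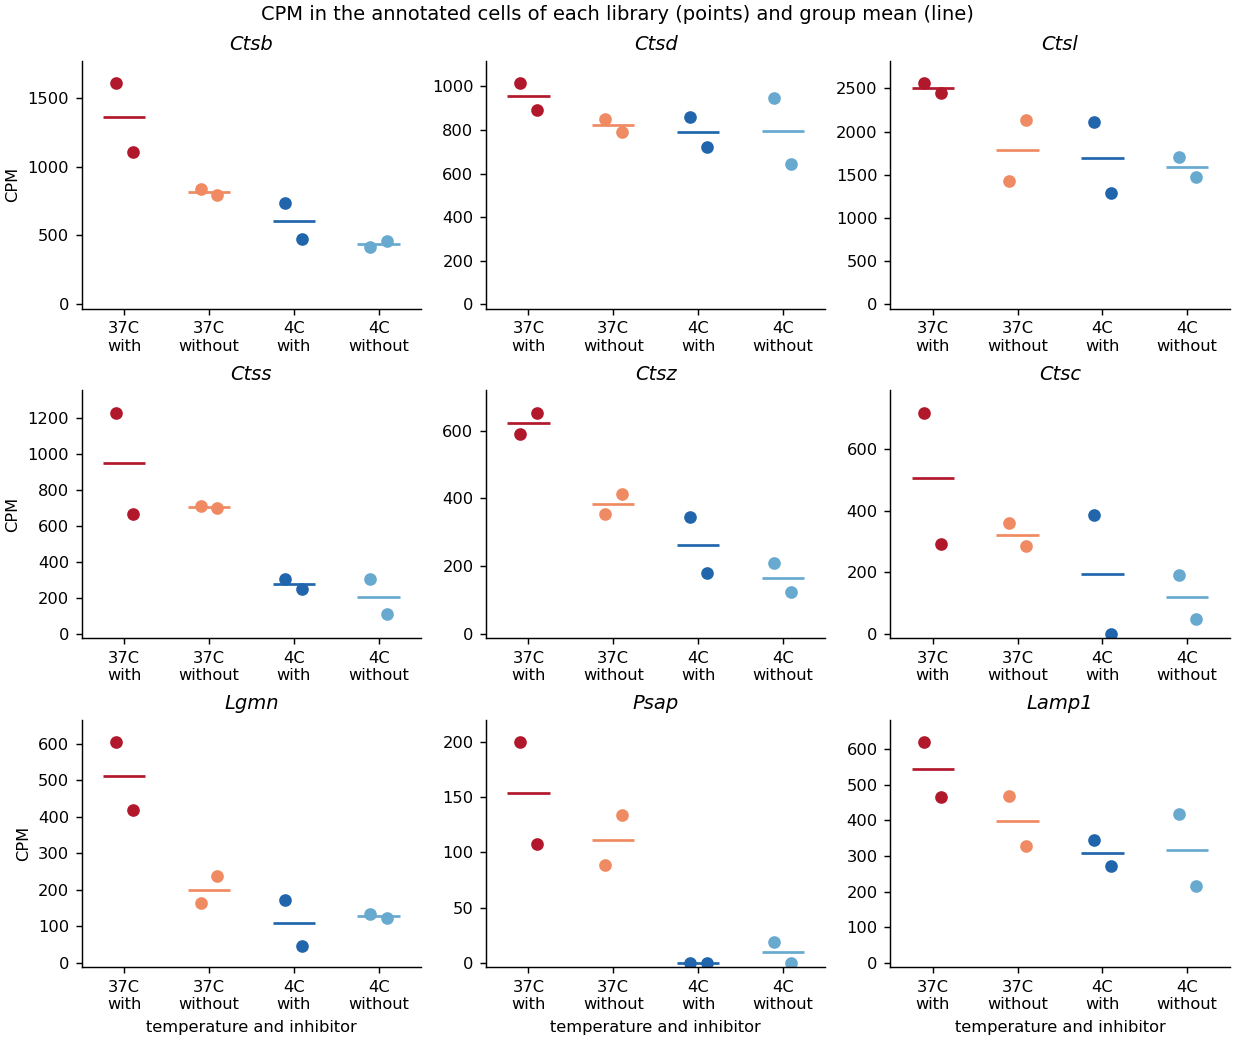
CPM of each gene in the annotated cells of the 8 libraries, by temperature and inhibitor; points are aliquots A (left) and B (right) and lines are group means. For Ctsb, Ctss, Ctsz and Psap every 37C library lies above every 4C library, while the temperatures overlap for Ctsd, Ctsl, Ctsc, Lgmn and Lamp1.

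Every 37C library lay above every 4C library for Ctsb, Ctss, Ctsz and Psap, 3 of the 8 other than Psap, against 5.37% of 3391 genes. The pairs of aliquots did not overlap for 6 of the 9 without inhibitor and for 8 with it, each time higher at 37C, against 20.1% and 22.5% of genes. Psap was among them both times and is not counted as support. Without inhibitor only Ctss was called between temperatures, at 1.83 ± 0.42 on the log2 scale (SE, adjusted p = 0.0325, edgeR), where 0.973% of genes were called higher. Without either 37C library of that comparison, or without 4C aliquot B, Ctss was no longer called, and its difference was 1.32 without 4C aliquot B and 2.73 without 4C aliquot A. With inhibitor Ctsb, Ctss and Lgmn were called, 3 of the 8 other than Psap, where 1.00% of genes were called higher. The log2 differences were 1.33 ± 0.33 for Ctsb (SE, adjusted p = 0.0356, edgeR), 1.92 ± 0.44 for Ctss (adjusted p = 0.0223) and 2.59 ± 0.53 for Lgmn (adjusted p = 0.011). That of Lgmn was 1.93 without aliquot B at 4C with inhibitor and 3.66 without aliquot A there, and that of Ctss ran from 1.43 without aliquot A at 37C with inhibitor to 2.31 without aliquot B there. Psap had 61 UMIs at 37C and 0 at 4C with inhibitor, at least 3.47-fold higher when 3 UMIs are allowed in the pooled 4C libraries. With Psap counted there were 4 calls, which became 0 without aliquot B at 4C with inhibitor, 1 without aliquot A at 37C with inhibitor, 7 without either 4C aliquot without inhibitor, and 1 in DESeq2. The share of all genes called with a library left out is not given here. These temperature contrasts share a model. The interaction, which tests their difference, called none of the 9 (0 of 3391 genes, 0.00%, in edgeR and 0 in DESeq2). At an unadjusted p under 0.05 it held 250 genes, among them Lgmn alone of the 9, at 1.92 ± 0.76 (SE, adjusted p = 0.555, edgeR).

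When macrophages were left out of the annotated cells, 7 of the 9 genes remained in the test and only Ctsz was called higher at 37C. Its log2 difference was then 1.23 (adjusted p = 0.022, edgeR). The share of all genes called higher in that fit is not given here. The count of calls is therefore not read as a result about the 9 genes. Ctsb stood at 0.04, Ctss at 0.19, Lgmn at -0.09 and Ctsd at -0.36, with adjusted p-values of 0.962, 0.89, 0.962 and 0.435 in the same fit. The macrophage share of a gene's UMIs was higher at 37C, with intervals that did not overlap, for 7 of the 9 genes. How many of all genes did so was not counted, and the macrophage share of all UMIs was itself higher at 37C. The count is therefore not read as a result about these genes. For Ctsz the intervals overlapped, at 44.1% at 37C [38.9% to 49.3%] and 28.6% at 4C [14.6% to 46.3%], and Psap had 1 UMI at 4C. Macrophages held 71.2% of the Ctsb UMIs at 37C [67.9% to 74.3%] and 25.6% at 4C [16.9% to 35.8%]. For Lgmn they held 80.6% at 37C and 23.8% at 4C, for Ctss 89.1% at 37C and 58.5% at 4C, and for Ctsl 24.4% at 37C and 3.08% at 4C. Over all UMIs the macrophage share was 19.1% at 37C and 6.01% at 4C.

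Within tumour cells 5 of the 9 genes had counts enough for the test, and none was called between temperatures. In that fit 0.911% of 1756 genes were called higher and DESeq2 called 7 genes, none of them among the 9. Ctsz came nearest. Its level was 407 and 480 CPM at 37C with inhibitor and 332 and 381 CPM at 37C without inhibitor, against 267 and 255 CPM at 4C with inhibitor and 166 and 176 CPM at 4C without inhibitor. Among the 5 genes tested the temperatures did not overlap for Ctsz alone, against 4.73% of the 1756 genes. For Ctsz the log2 difference was 0.92 ± 0.34 (SE, adjusted p = 0.165, unadjusted p = 0.00896, edgeR). None of the 5 was called without inhibitor or with it, where 1.37% and 0.00% of genes were called higher.

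Ctsl in tumour cells had 1808 to 2779 CPM at 37C and 2072 to 3209 CPM at 4C, a log2 difference of -0.03 ± 0.16 (SE, adjusted p = 0.963, edgeR). Ctsb had 297.5 to 499.8 CPM at 37C and 299 to 552 CPM at 4C, with -0.26 ± 0.29 (SE, adjusted p = 0.767). Ctsd had 413 to 559 CPM at 37C and 551 to 802 CPM at 4C, with -0.46 ± 0.26 (SE, adjusted p = 0.461), and Lamp1 differed by 0.09 ± 0.31 (SE, adjusted p = 0.929). The other 4 genes had 34 UMIs of Ctss, 12 of Ctsc, 45 of Lgmn and 22 of Psap in tumour cells at 37C, against 7, 7, 15 and 1 at 4C.

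**Figure D3:**
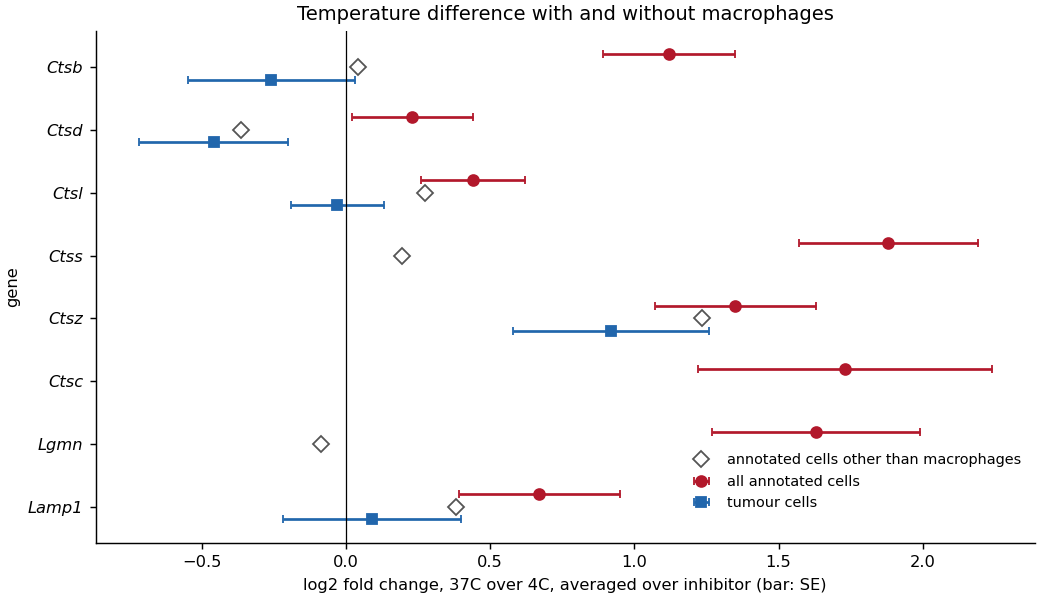
Log2 fold change of 37C over 4C, averaged over inhibitor, in all annotated cells and in tumour cells (bars, SE) and in annotated cells other than macrophages (open diamonds, no error shown); Psap is left out because its fold rests on 1 UMI at 4C. Ctsb, Ctss and Lgmn lie between 1.12 and 1.88 in all annotated cells and between -0.09 and 0.19 without macrophages, while Ctsz is at 1.35 in all annotated cells and 1.23 without macrophages.

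In macrophages the 4C values rest on 17 cells and are a description. All 9 genes had a higher summed level at 37C, and the share of all genes that did so was not counted. Ctsl had 2781 CPM [2509 to 3074] at 37C and 808 CPM at 4C on 9 UMIs, a ratio of 3.44 [1.79 to 7.58]. Lgmn had 1573 CPM at 37C and 449 CPM at 4C on 5 UMIs, a ratio of 3.50 [1.48 to 10.9]. Ctsb was 2.01-fold higher [1.33 to 3.20] and Ctss 1.81-fold [1.21 to 2.86]. Psap had 69 UMIs in 137357 at 37C and 0 in 11137 at 4C, at least 1.86-fold higher when 3 UMIs are allowed.

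In the 85 cells with at least 1% macrophage markers most of these differences were smaller. Ctss had 4344 CPM [3962 to 4753] in 77 cells at 37C and 4214 CPM [2641 to 6380] in 8 cells at 4C. Ctsc had 2268 CPM at 37C and 2298 CPM [1188 to 4015] at 4C, and Ctsd had 2716 CPM at 37C and 2490 CPM at 4C. Ctsb had 5067 CPM at 37C and 3448 CPM [2043 to 5449] at 4C. Only for Ctsl did the intervals stay apart, at 3411 CPM [3074 to 3776] at 37C and 1341 CPM [539 to 2762] at 4C, on 7 UMIs in those 8 cells. Psap was at 549 CPM at 37C and at 0 of 5221 UMIs at 4C, with an upper interval limit of 706.5 CPM, so no difference was detectable at this depth.

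**Figure D4:**
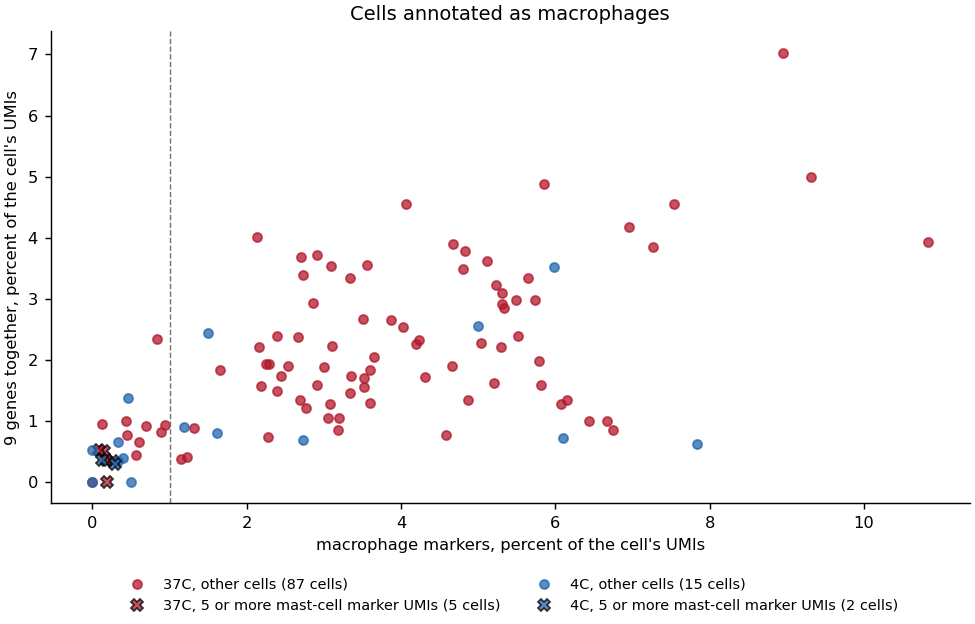
Each of the 109 cells annotated as macrophages, by the percent of its UMIs from 12 macrophage markers (x axis) and from the 9 lysosomal genes (y axis); the dashed line is at 1% and crosses are cells with 5 or more mast-cell marker UMIs. To the right of the line are 77 of the 92 cells at 37C and 8 of the 17 cells at 4C, and the 7 crosses lie to its left.

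Between inhibitor and none at 37C, Lgmn was the only gene of the 9 called in annotated cells. Its log2 fold change was 1.37 ± 0.33 (SE, n = 2 libraries per group; adjusted p = 0.0437, edgeR), where 0.147% of genes were called higher. The aliquots with inhibitor had 605 and 419 CPM, those without it 164 and 237 CPM. The call was lost without aliquot A with inhibitor and without either aliquot without it, and DESeq2 gave an adjusted p of 0.57. All 9 values were positive, against 51.4% of all genes. Of the 9, 5 had both aliquots with inhibitor above both without, against 18.7% of all genes. Ctsb differed by 0.76 ± 0.28 (SE, adjusted p = 0.314, edgeR), Ctsz by 0.72 ± 0.31 (SE, adjusted p = 0.466) and Ctsl by 0.51 ± 0.24 (SE, adjusted p = 0.58). The macrophage share of cells was 26.0% with inhibitor [20.4% to 32.4%] and 16.4% without it [11.7% to 22.0%], and 3 of 11 macrophage markers tested, the C1q chains C1qa, C1qb and C1qc, were called higher with inhibitor. T cells were 9.59% with inhibitor [6.03% to 14.3%] and 23.8% without it [18.3% to 30.1%]. Of 11 T-cell markers 2, Cd8a and Cd8b1, were called lower, as was Ccr7 among 2 dendritic-cell markers. The share of all genes called lower is not given here, so these counts are not read as results about those markers. The part of the cell shares in the Lgmn difference was not tested.

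Within macrophages at 37C none of the 9 was called between inhibitor and none. None of 582 genes was (0.00%), 57 were at an unadjusted p under 0.05, and DESeq2 called 0. Lgmn had 1884 and 1762 CPM in macrophages with inhibitor and 779 and 1471 CPM without it, a log2 difference of 0.61 ± 0.35 (SE, adjusted p = 0.627, edgeR). Ctsz differed by 0.50 ± 0.30 and Ctsl by 0.41 ± 0.30 (SE), and Ctss by -0.26 ± 0.28. In tumour cells Lgmn had 144 and 127 CPM at 37C with inhibitor on 36 UMIs and 34.3 and 53.1 CPM at 37C without it on 9 UMIs, a ratio of 2.99 [1.41 to 7.06]. It was too sparse there for the test. At 4C tumour cells had 134 and 42.5 CPM of Lgmn with inhibitor and 133 and 176 CPM without, on 3 and 12 UMIs, so the order was not the same as at 37C. None of the 5 genes tested in tumour cells was called between inhibitor and none at 37C, where 0.0569% of genes were called higher.

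At 4C no gene was called between inhibitor and none, of 3391 (0.00%) in edgeR and of the same genes in DESeq2, and 172 genes had an unadjusted p under 0.05, none of the 9 among them. The members' log2 differences, Psap aside, ran from -0.55 ± 0.70 for Lgmn to 0.51 ± 0.50 for Ctsz (SE). The macrophages behind these values numbered 1 and 5 with inhibitor and 8 and 3 without.

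Other genes of the lysosome are read against the same 2.74% of all genes called higher. Of the cathepsin inhibitors, Cst3, which codes for the secreted cystatin C, and Cstb, which codes for the cytosolic cystatin B, were called higher at 37C, 2 of 3 tested. Cst3 had 1023 ± 121 CPM at 37C and 477.5 ± 36.1 CPM at 4C (SD, n = 4), a log2 difference of 1.15 ± 0.22 (SE, adjusted p = 0.00314, edgeR). Cstb had 452 ± 48.8 CPM at 37C and 209 ± 80.5 CPM at 4C (SD, n = 4), with 1.09 ± 0.29 (SE, adjusted p = 0.0321, edgeR). Cst3 and Cstb also had a higher level in macrophages than in tumour cells, with 2027 CPM of Cst3 and 714 CPM of Cstb in macrophages and 786 CPM of Cst3 and 421 CPM of Cstb in tumour cells.

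Of 18 hydrolases and activators tested, 1 was called, a share near that of all genes. This was Ifi30, the thiol reductase of antigen processing, with a log2 difference of 1.81 ± 0.45 (SE, adjusted p = 0.0233, edgeR). It had 835 CPM in macrophages and 101 CPM in tumour cells. Of 9 lysosomal membrane proteins, Cd68, also used here as a macrophage marker, was called, at 1.94 ± 0.45 (SE, adjusted p = 0.0136, edgeR). Slc15a3, a peptide and histidine transporter, was called too, at 2.02 ± 0.53 (SE, adjusted p = 0.0281, edgeR). It had 96 UMIs at 37C and 6 at 4C. Cd68 had 165 UMIs at 37C and 11 at 4C. Like Psap, Cd68 and Slc15a3 passed the count filter through their 37C libraries, so neither call is counted as support. None of 4 other cathepsins was called, with Ctsa at 0.95 ± 0.33 and Ctsw, a protease of cytotoxic lymphocytes, at -0.52 ± 0.68 (SE).

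None of 12 subunits of the V-ATPase, the proton pump that acidifies lysosomes, was called, with Atp6v1f at 0.05 ± 0.31 and Atp6v0e at 0.55 ± 0.30 (SE). Of the sorting genes only the mannose 6-phosphate receptor M6pr was tested, at 0.44 ± 0.38 (SE). The median log2 difference was 0.29 for the hydrolases and activators, 0.21 for the membrane proteins and 0.47 for the V-ATPase, against 1.35 for the 9 genes and 0.04 for all genes tested.

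Outside the annotated cells the same genes were found in barcodes with under 100 UMIs, 10671 at 37C and 11409 at 4C. Ctss had 2060 CPM [1928 to 2199] there at 37C and 257 CPM [191 to 341] at 4C. Ctsc had 1069 CPM at 37C and 105 CPM at 4C, and Lgmn 468.5 CPM at 37C and 47.3 CPM at 4C. Ctsb had 1428 CPM at 37C and 405 CPM at 4C. The 37C libraries lay above the 4C libraries for 8 of the genes, Ctsd being the other, against 6.40% of the 3391 genes. Psap was among the 8, on 51 UMIs at 37C and 3 at 4C, and is not counted as support. Ctsd had 666 CPM at 37C and 520 CPM at 4C, with libraries from 441 to 820.5 CPM at 37C and from 409 to 603 CPM at 4C. At 37C Ctss had 282 CPM in annotated T cells and Ctsl 73.6 CPM, both far under the level in these barcodes.

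The unannotated barcodes with over 5000 UMIs, 104 at 37C and 1 at 4C, were like tumour cells in these genes. At 37C they had 2014 CPM of Ctsl, 392 CPM of Ctsb, 67.8 CPM of Ctss and 34.5 CPM of Ctsc. Summed over all barcodes of each library, 8 of the 9 genes, Psap included, were called higher at 37C averaged over inhibitor. Ctsd, with a log2 difference of -0.02, was the one not called. Over all barcodes 9.18% of 7515 genes were called higher.

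**Figure D5:**
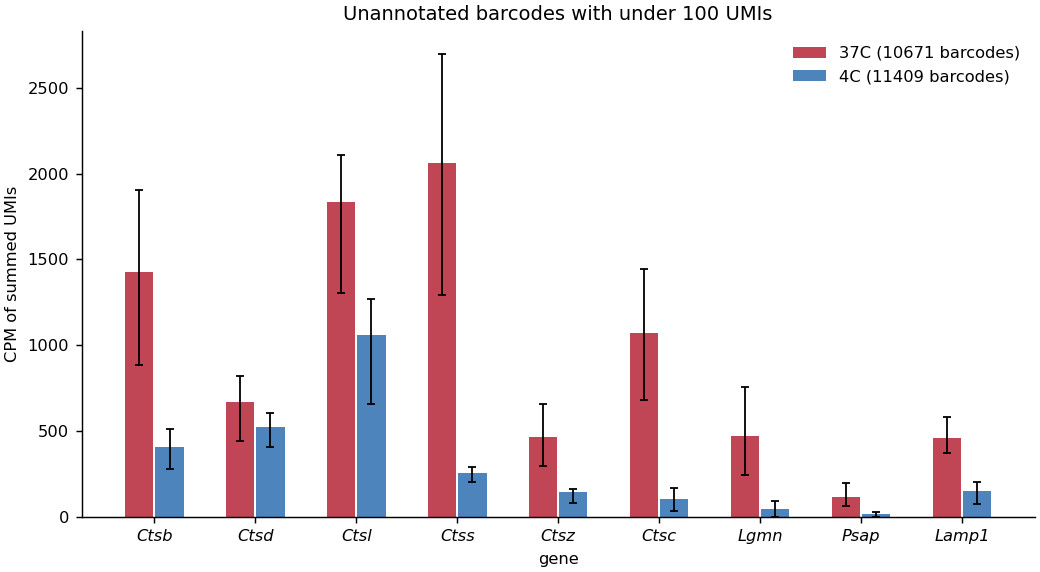
CPM of each gene in the unannotated barcodes with under 100 UMIs, at 37C (left bars) and 4C (right bars); bars are CPM of the UMIs summed over 4 libraries and lines run from the lowest to the highest library. Ctss stands at 2060 CPM at 37C and 257 CPM at 4C, and Ctsd is the gene whose library ranges overlap.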

How the data were processed

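Per the labels' protocols, the SureCell 3′ kit for ddSEQ was used. The deposited tables hold raw UMI counts per gene and barcode, 2990 to 3000 barcodes in each library. The submitters' processing notes name GRCm38, STAR 2.7.1a, Seurat, SAMtools, UMI-tools and featureCounts 1.6.0, with no order or strand setting. A further deposited table holds the natural log of 1 plus scaled expression for the 654 annotated cells, whose clusters are the authors'. The sources used here do not say how doublets were treated, and no caller was run. Symbols were looked up by Ensembl identifier in a reference table of mouse gene names: of 17580 identifiers 12505 matched with their version, 5015 without it and 60 not at all.

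Counts were summed per library over annotated cells or 1 cell type, and CPM divides by that sum. Tests used edgeR 4.0.16 in R 4.3.3 (filterByExpr, TMM, quasi-likelihood F test, 4 groups in 1 fit), with Benjamini-Hochberg adjustment over all genes tested and a call under 0.05. The SE is the log2 fold change divided by the root of F. DESeq2 1.42.0 was an alternative. Cell types were compared without a test. Alternatives were another scaling, no count filter, thinning, all barcodes, cells other than macrophages, a replicate block, aliquots summed to 4 suspensions and leaving out each library. Thinned values use 200 UMIs per cell, and every annotated cell had at least that number.

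The genes and lists were chosen with earlier results of these data known. All 9 were named whatever their call. From each other lysosomal list the genes called were named, otherwise the 2 with the highest mean CPM. The 3 genes of most similar pattern were named for each gene with 100 UMIs. The set of macrophages with at least 1% marker UMIs was chosen after seeing the data. Promoters are RefSeq's, for GRCm38.p6.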

Additional observations from a re-analysis of the deposited data

Results flagged for a closer look

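In 4 of 53 sets of 4 libraries compared, a library stood apart from the other 3 by Dixon's criterion, and chance alone marks about 1 set in 20. Ctss in annotated cells at 37C was 1230 CPM in aliquot A with inhibitor, against 664 to 707 CPM in the other 3 libraries. Psap in annotated cells at 4C was 19.0 CPM in aliquot A without inhibitor and 0 in the other 3, and in tumour cells at 4C it was 33.2 CPM in that library and 0 in the other 3. Both values are the same single UMI. Ctsb in macrophages at 4C was 6304 CPM in aliquot A with inhibitor, against 1364 to 1890 CPM in the other 3, and that library held 1 macrophage.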

How the results depend on the processing

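The counts that follow are of the 9 genes called between temperatures, Psap included. Averaged over inhibitor, where 5 were called, the count was 8 with no count filter, 0 of 7 when libraries were thinned to the smallest, 8 over all barcodes, 1 without macrophages, and 4 to 7 when 1 library was left out. Without inhibitor (1 called) the counts under these settings were 3, 0, 6, 0 and 0 to 2. With inhibitor (4 called) they were 7, 0, 8, 0 and 0 to 7, and 1 in DESeq2. For inhibitor at 37C (1 called) thinning, DESeq2 and the removal of macrophages each gave 0, all barcodes gave 3, and leaving out 1 library gave 0 to 1. Over all genes averaged over inhibitor, 135 were called, against 60 in DESeq2, 293 with no filter, 23 after thinning and 1290 over all barcodes. In tumour cells 1 of the 9, Ctsz, was called with no filter. DESeq2 called 33 genes between temperatures with inhibitor and 8 genes between inhibitor and none at 37C. Elsewhere among these settings and contrasts the share of all genes called is not given here. Those counts are therefore not read as results about the 9 genes.

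Directions turned for these log2 differences. Ctsd stood at -0.023 over all barcodes and -0.36 without macrophages. Without macrophages Lgmn stood at -0.087 averaged and -1.18 without inhibitor, Ctsb at -0.135 without inhibitor and Ctss at -0.018 with inhibitor. In tumour cells Ctsb was 0.17 and Ctsl 0.42 with no filter, and Lamp1 was -0.36 after thinning. There, leaving out 1 library gave -0.38 to 0.21 for Ctsb, -0.19 to 0.26 for Ctsl and -0.013 to 0.512 for Lamp1. Ctsl in macrophages over tumour cells was -0.64 with equal weight per library and -0.10 to 0.18 with 1 library left out, so that 8 to 9 genes were higher in macrophages. The cause of these shifts was not tested.

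The main fit had no replicate block. Over 6 pairs of groups the deviations of aliquots with the same letter correlated at -0.03 to 0.24. Summed macrophage markers had more CPM in aliquot A than in B in each of the 4 groups. Whether aliquots of one letter share an effect was not tested. With the replicate block Ctsc was called at 1.73 (adjusted p = 0.0133, edgeR). With aliquots summed to 4 suspensions the 5 calls averaged over inhibitor were 6, Ctsc being called there too at 1.79 (adjusted p = 0.00506, edgeR), and the other 8 kept their direction and side of the threshold. The fit of summed suspensions had additive terms for temperature and inhibitor and a single sum per condition. Its p-values therefore measure departure from additivity between suspensions, not the spread between aliquots. With the block, in the 11 comparisons no count of the 9 moved by over 1.5 times. Without inhibitor 56 genes were called with the block and 36 without it. DESeq2's size factors in the edgeR fit changed no count of the 9 in these comparisons. The annotated UMIs at 4C, 185425 in all, limit the genes with few counts, Psap and Ctsc above all.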
